A study of Drosophila melanogaster with 3 samples.

Results

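Aminoacyl-tRNA synthetases join each amino acid to its tRNA, and so supply the ribosome with charged tRNAs. Eukaryotic cells keep a set of these enzymes in the cytosol and another in the mitochondrion, both encoded by nuclear genes, and some genes serve both compartments. Their genes are active in nearly all cells. The 33 genes described here are the protein-coding genes on the major chromosome arms of Drosophila melanogaster whose symbol is an amino acid name, or a pair of them, followed by RS, out of 13945 protein-coding genes. The suffix -m marked 15 of them as mitochondrial enzymes, and the other 18 were taken as cytosolic. The genes of both subunits of the cytosolic phenylalanine enzyme, alpha-PheRS and beta-PheRS, carry a prefix and are treated separately below.

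Insensitive (Insv) is a nuclear protein that binds DNA through a BEN domain and represses transcription. Its place on chromatin was measured by chromatin immunoprecipitation and sequencing (ChIP-seq) with an antibody to GFP, in a transgenic fly line that carries Insv with GFP fused to its C terminus. The material was whole embryos of mixed sex, 0 to 24 h old, so all embryonic cell types and stages were pooled, and 3 biological replicates form a single group. The values are ranked lists of regions that the authors called against a control alignment: 30000 regions for each replicate, and 4753 peaks that passed their test of reproducibility (irreproducible discovery rate, IDR). The depth behind these lists is unknown, because they hold no read counts. The region lists held 8416, 13955 and 12195 regions with a q-value below 0.05 in replicates 1, 2 and 3. A gene is called bound if any of its transcription start sites (TSSs) had an IDR summit at most 500 bp away. In each replicate the same rule was applied to its 4753 strongest regions.

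Sequences from the peaks that the results turn on are given first, on the plus strand of dm6, with matches to the 9 motifs searched in capitals. The strongest peak at a synthetase gene had its summit in the gap between the starts of Fitm and AlaRS-m (chr3L:5146064-5146097, summit at base 5). The whole gap of 34 bases, without a match, is shown, and the peak extends beyond it.
AlaRS-m: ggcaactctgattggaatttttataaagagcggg
The next peak shown had its summit between the start of GluRS-m and the 3′ end of TyrRS (chr3L:16417178-16417348, summit at base 38). The gap is again without a match, and this peak too extends beyond it.
GluRS-m: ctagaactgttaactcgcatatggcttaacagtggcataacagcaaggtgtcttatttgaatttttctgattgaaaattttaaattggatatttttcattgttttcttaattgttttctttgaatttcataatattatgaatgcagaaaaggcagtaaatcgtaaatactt
A stronger peak, near the TyrRS start, had its summit inside the neighbouring gene CG33158. Only the site of the promoter protein M1BP with its flanks is shown (chr3L:16419656-16419685).
TyrRS: tttttgtagctGGTCACACcaaattgcgaa
The gap between TrpRS and Vps16A (chr3R:9266905-9267018, summit at base 81) is added, chosen after the values were seen, because it holds the site of the promoter factor DREF under a summit.
TrpRS: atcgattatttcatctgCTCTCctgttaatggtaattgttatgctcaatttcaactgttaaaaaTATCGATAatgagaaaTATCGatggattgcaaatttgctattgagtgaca

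The first question was how many synthetase genes carried Insv-GFP at their promoters. By this rule 20 of the 33 genes were bound (60.6%, Wilson 95% interval 43.7 to 75.3%), against 3456 of all 13945 protein-coding genes (24.8%). The strongest regions of replicates 1, 2 and 3 marked 18, 19 and 17 of the 33 genes, against 25.1%, 24.4% and 22.0% of all protein-coding genes. The replicate shares averaged 54.5% ± 3.03 for the synthetase genes and 23.8% ± 1.61 for all genes (SD, n = 3). Synthetase genes exceeded all genes by 29.5, 33.2 and 29.5 points in the 3 replicates. The exact sign-flip test over the replicates, two-sided, gave p = 0.25, the smallest that 3 replicates allow. Intervals treat genes as independent and cover counting error only.

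Most of these peaks lay at promoters that synthetase genes share with a neighbour. For 17 of the 20 bound genes, the strongest peak was also within 500 bp of a TSS of another protein-coding gene (85%), against 58.7% of all bound genes. When such shared peaks were counted for no gene, 3 of the 33 synthetase genes remained bound (9.09%), namely GluRS-m, AspRS-m and PheRS-m, against 10.6% of all genes. The difference from all genes then turned to -1.53 points. This rule removes every peak between closely spaced starts, whichever gene it belongs to, and ChIP-seq alone cannot assign such a peak to either gene.

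**Figure D1:**
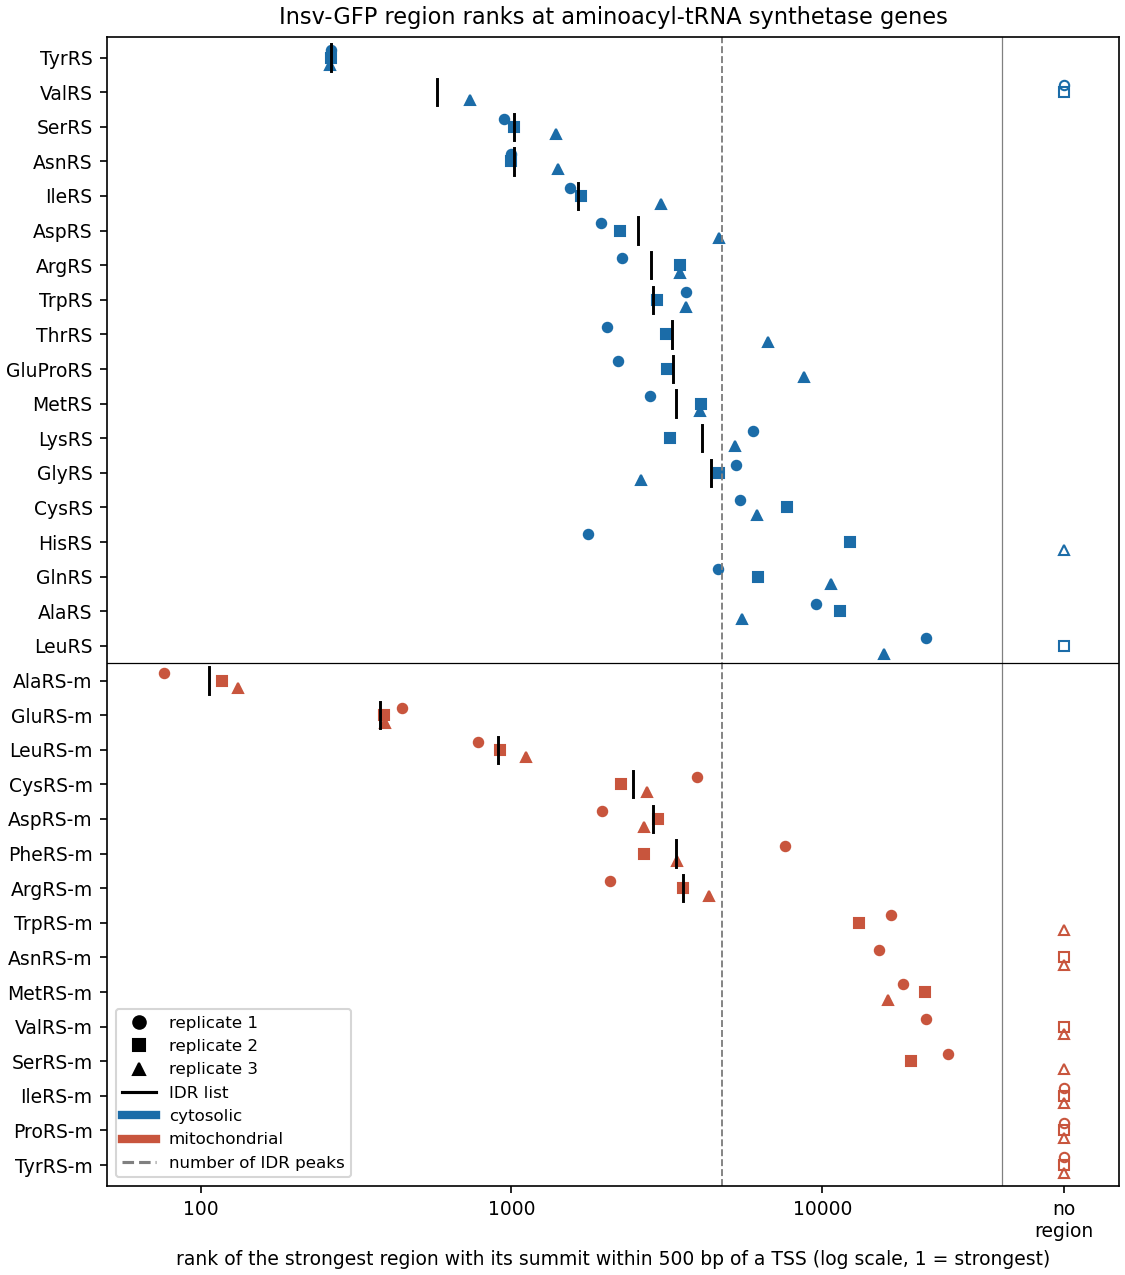
Rank of the strongest region whose summit lay within 500 bp of a TSS of each synthetase gene, on a log scale where 1 is the strongest, for the 18 cytosolic genes (above) and the 15 mitochondrial genes (below). Filled symbols are the 3 replicates, open symbols stand for no region in that list, black bars give the IDR rank, and the dashed line marks 4753. Unbound mitochondrial genes lie far to the right of the bound ones, while the cytosolic genes form a more even series.

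Among cytosolic enzymes 13 of 18 genes were bound (72.2%, Wilson 95% interval 49.1 to 87.5%), and among mitochondrial enzymes 7 of 15 (46.7%, 24.8 to 69.9%). In the replicates the shares were 63.0% ± 6.42 for cytosolic and 44.4% ± 3.85 for mitochondrial enzymes (SD, n = 3). Cytosolic shares exceeded mitochondrial ones by 26.7, 20 and 8.89 points in replicates 1, 2 and 3, with a mean of 18.5 ± 8.98 points (SD, n = 3). It was positive in 3 of 3 replicates, and the exact sign-flip test, two-sided, gave p = 0.25, the smallest possible. In the IDR list the difference was 25.6 points, but it was 8.89 points without replicate 1 and 10 without replicate 2, and it turned to -20 points when shared peaks were not counted. It was 14.4 points with summits within 250 bp, where 20.9% of all protein-coding genes were bound, and again 14.4 where the peak had to cover a TSS (20.4% of all). Within 1000 bp, where 27.5% of all were bound, it was 31.1 points.

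TyrRS, which charges tyrosine tRNA, had the strongest peak of a cytosolic gene (3L, 16419060 to 16420025, IDR rank 262 of 4753). Its ranks of 262, 263 and 261 in replicates 1, 2 and 3 were almost the same, with a percentile of 99.1 ± 0.00333 (SD, n = 3; the percentile runs from 0 to 100, the strongest region). The summit lay 352 bp upstream of the TyrRS TSS and 57 bp from that of CG33158, in the 5′UTR of CG33158.

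ValRS, the valine enzyme, was next by IDR rank (577), with a summit 495 bp upstream of its nearest TSS and 18 bp from that of Kdm4B, a histone demethylase gene. It was the bound gene nearest to the 500 bp limit. The nearest strong summits lay 501 bp away in replicate 1 (rank 534), 525 bp in replicate 2 (rank 483) and 482 bp in replicate 3 (rank 733). The gene was therefore bound in replicate 3 alone, although a strong region was present in all 3 replicates. Of the unbound genes, HisRS and AlaRS came nearest to the limit, with IDR summits 967 bp and 1080 bp away.

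SerRS, the serine enzyme, had ranks of 943, 1016 and 1394 in replicates 1, 2 and 3, and AsnRS, the asparagine enzyme, had 995, 996 and 1416. Both ranked weaker in replicate 3 than in the other replicates, yet stayed among the strongest 4753 regions in each. The SerRS summit lay 51 bp upstream of a SerRS TSS, in the 5′UTR of the overlapping gene CG17260. The AsnRS summit lay 242 bp upstream, between AsnRS and the dynactin subunit gene DCTN6-p27.

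IleRS, the isoleucine enzyme, had ranks of 1541, 1675 and 3033 in replicates 1, 2 and 3, between its start and that of Hem, a subunit of the WAVE actin regulator. AspRS, the aspartate enzyme, had ranks of 1936, 2233 and 4668. Its IDR summit lay in an intron of AspRS that overlaps an intron of the neighbouring gene Nmda1. These ranks need not belong to a single site. In replicate 1 another region, of rank 2305, lay nearer to an AspRS TSS (114 bp) than that of rank 1936. At IleRS and AspRS alike replicate 3 gave the weakest rank. The remaining bound cytosolic genes were ArgRS, TrpRS, ThrRS, GluProRS, MetRS, LysRS and GlyRS, at IDR ranks from 2818 to 4376. GluProRS, which carries the glutamate and proline enzymes in a single protein, spread most of these, with ranks of 2206, 3164 and 8722 in replicates 1, 2 and 3.

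Among mitochondrial enzymes, AlaRS-m, the alanine enzyme, had the strongest peak of all 33 genes (3L, 5145666 to 5146418, IDR rank 106). Its ranks were 76, 117 and 132 in replicates 1, 2 and 3, a percentile of 99.6 ± 0.0966 (SD, n = 3). The summit lay 30 bp upstream of its TSS and 5 bp from the start of Fitm, a gene of fat storage.

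GluRS-m, the glutamate enzyme, had ranks of 445, 388 and 393 in replicates 1, 2 and 3 (3L, 16416814 to 16417727, IDR rank 378). Its summit, 38 bp upstream of the TSS, was within 500 bp of no other protein-coding start. GluRS-m and TyrRS are neighbours on the same strand, and the peaks near their starts are separate, the one near TyrRS being shared with CG33158. LeuRS-m, the leucine enzyme, followed with ranks of 778, 921 and 1111, at a start 166 bp from that of Dhc64C, the heavy chain of cytoplasmic dynein. The summit lay 96 bp from the LeuRS-m TSS and 70 bp from that of Dhc64C.

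CysRS-m, the cysteine enzyme, had ranks of 3958, 2254 and 2736 in replicates 1, 2 and 3, with its summit 160 bp upstream and 8 bp from the start of O-fut1, which adds fucose to the Notch receptor. AspRS-m had ranks of 1949, 2969 and 2678, with its summit 96 bp downstream of a TSS in its own 5′UTR. PheRS-m, a single-chain phenylalanine enzyme, had ranks of 7575, 2664 and 3400, and so was outside the strongest 4753 regions of replicate 1. ArgRS-m, with IDR rank 3556, was the last bound mitochondrial gene.

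Bound synthetase genes were spread over the IDR list and did not gather at its top. The median IDR percentile of their strongest peaks was 43.6 (n = 20), at 40.7 for the 13 cytosolic and 48.1 for the 7 mitochondrial genes, against 52.1 for all 3456 bound genes. The stronger 50% of the list held 8 of the 20 genes (40%), against 52.3% of all bound genes. The median rose to 65.6 without replicate 2, since 5 weaker genes were then lost. Of the 20 genes, 14 were among the strongest regions of all 3 replicates (70%), against 69.5% of all bound genes. Counted over all 33 genes this is 42.4%, against 17.3% of all protein-coding genes. At every bound synthetase gene the IDR rank equalled the rank in the pooled list. A bound gene therefore need not be among the strongest regions of each replicate. LysRS was so in replicate 2 alone, with ranks of 6004, 3226 and 5225 in replicates 1, 2 and 3.

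The 13 unbound genes differed in how much signal they had. The cytosolic ones were AlaRS, CysRS, GlnRS, HisRS and LeuRS. CysRS had ranks of 5443, 7688 and 6151 in replicates 1, 2 and 3, GlnRS had 4618, 6212 and 10680, and AlaRS had 9583, 11422 and 5523. The regions had a q-value below 0.05 in all 3 replicates for CysRS and GlnRS and in 2 of 3 for AlaRS. Over all unbound protein-coding genes, 9.15% had such a region in all 3 replicates. HisRS had ranks of 1760 in replicate 1 and 12329 in replicate 2, and no region in replicate 3. GlnRS and HisRS were thus among the strongest 4753 regions of replicate 1, and of no other replicate. LeuRS had ranks of 21540 and 15776 in replicates 1 and 3, and none in replicate 2.

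The unbound mitochondrial genes were AsnRS-m, IleRS-m, MetRS-m, ProRS-m, SerRS-m, TrpRS-m, TyrRS-m and ValRS-m. MetRS-m, the only one with a region in all 3 replicates, had ranks of 18178, 21472 and 16300 in replicates 1, 2 and 3. IleRS-m, ProRS-m and TyrRS-m had no region in any replicate list. A q-value below 0.05 was reached in 1 of these 8 genes, TrpRS-m, and there in replicate 2 alone (rank 13177). Over both classes, 10, 7 and 5 of the 13 unbound synthetase genes had a region in replicates 1, 2 and 3. Such regions lay at 39.8%, 40.2% and 37.9% of all unbound protein-coding genes.

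The class difference was wider at a looser limit. In the pooled list, all 18 cytosolic genes had a region with a q-value below 0.05 within 500 bp of a TSS, and 7 of 15 mitochondrial genes had one, against 43.8% of all protein-coding genes. The difference was 53.3 points, and the 7 mitochondrial genes were those already bound in the IDR list. The replicates were less complete on their own: 14 of 18 cytosolic genes (77.8%) and 7 of 15 mitochondrial genes (46.7%) had such a region in all 3, against 30.9% of all protein-coding genes.

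**Figure D2:**
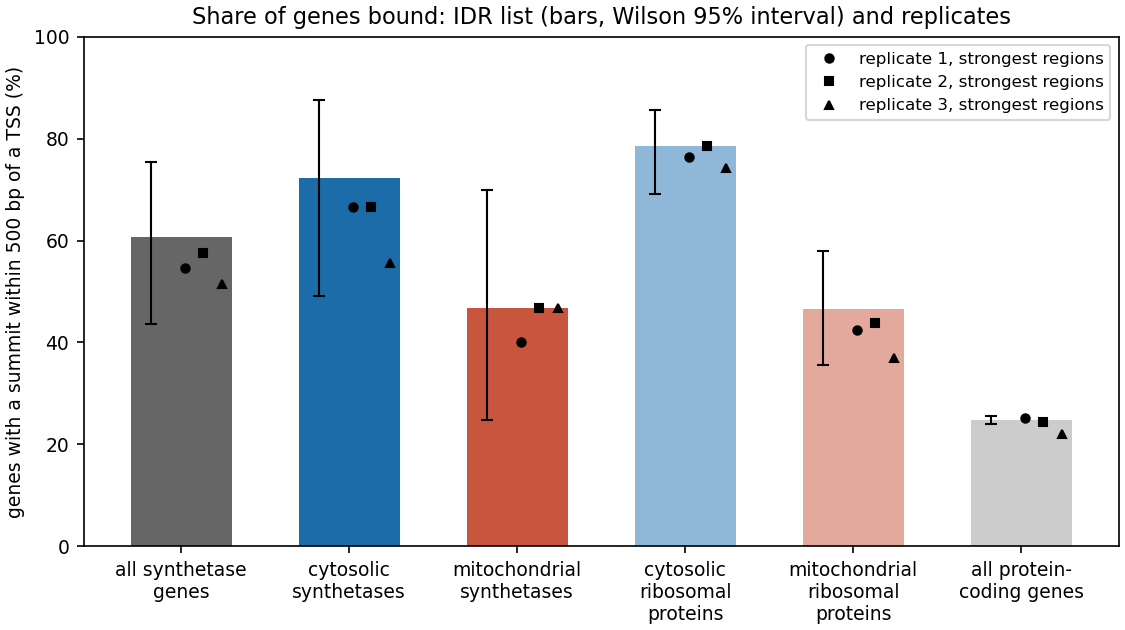
Share of genes with a summit within 500 bp of a TSS, for the synthetase genes as a whole and by class, ribosomal protein genes by class, and all protein-coding genes. Bars give the IDR list with Wilson 95% intervals, and points give the strongest regions of each replicate. Cytosolic synthetases stand at 72.2% and mitochondrial ones at 46.7%, against 24.8% of all genes.

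Ribosomal protein genes, the most similar housekeeping set with both a cytosolic and a mitochondrial class, had shares of the same order. Of 93 cytosolic ribosomal protein genes 73 were bound (78.5%), and of 73 mitochondrial ones 34 were bound (46.6%). Replicate shares were 76.3% ± 2.15 for the cytosolic and 41.1% ± 3.62 for the mitochondrial class (SD, n = 3). The synthetase shares of 72.2% and 46.7% lie within the Wilson intervals of these sets, 69.1 to 85.6% and 35.6 to 57.9%.

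The arrangement of the genes differed between the classes. A gene was called head-to-head if a protein-coding gene on the opposite strand started at most 1000 bp away and ran the other way, by the outermost TSS of each gene. By this rule 22 of the 33 synthetase genes were head-to-head (66.7%), against 33.3% of all protein-coding genes. They comprised 15 of 18 cytosolic genes (83.3%) and 7 of 15 mitochondrial genes (46.7%).

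Within head-to-head genes, 16 of 22 synthetase genes were bound (72.7%), against 43.7% of all head-to-head genes, and the replicates gave 65.2% ± 5.25 against 41.7% ± 3.77 (SD, n = 3). AspRS is among the 16 because its outermost TSS starts 38 bp from that of Lfg. Its summit, however, lay at an inner TSS beside Nmda1, and with canonical TSSs alone AspRS was not bound. Outside head-to-head pairs, 4 of 11 were bound (36.4%), against 15.3% of all other genes, with replicate shares of 33.3% ± 5.25 and 14.9% ± 0.576 (SD, n = 3). In both arrangements the synthetase share was higher in 3 of 3 replicates. At the rates of all genes with the same arrangement, 11.3 of the 33 genes would be bound (34.3%), against the 20 observed.

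By class, 12 of 15 cytosolic and 4 of 7 mitochondrial head-to-head genes were bound (80% and 57.1%), and outside such pairs 1 of 3 and 3 of 8 (33.3% and 37.5%). The 12 cytosolic genes include AspRS. The bound cytosolic gene outside such pairs was SerRS, whose summit lay 43 bp from a TSS of CG17260 on the opposite strand. The Wilson 95% intervals overlapped widely, at 54.8 to 93.0% and 25.1 to 84.2% for head-to-head genes and 6.15 to 79.2% and 13.7 to 69.4% for the others. How much of the class difference arrangement accounts for was not tested. The rates of all genes with the same arrangement would give 39.0% for the cytosolic and 28.6% for the mitochondrial genes.

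**Figure D3:**
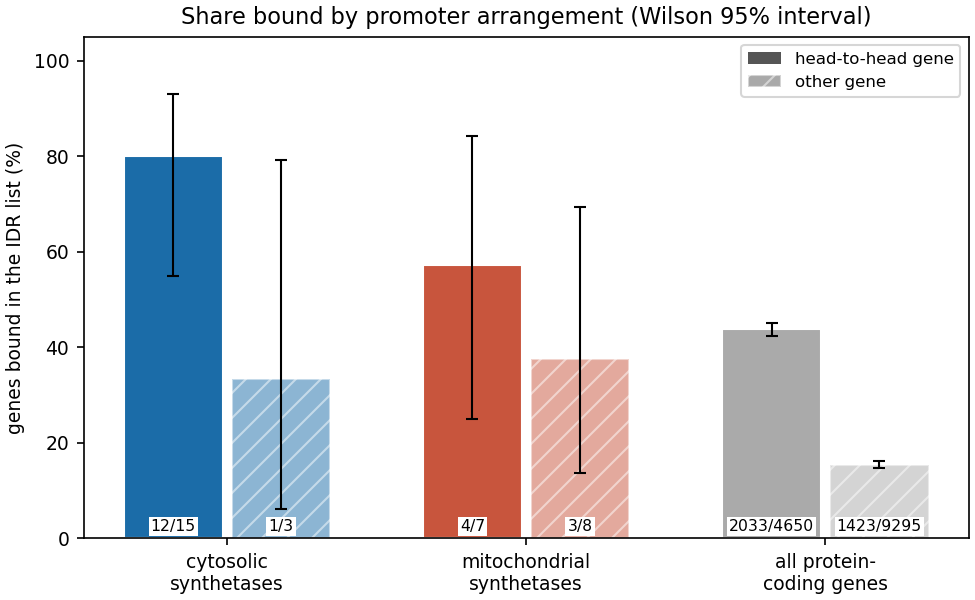
Share of genes bound in the IDR list, for head-to-head genes (solid bars) and other genes (hatched bars), with Wilson 95% intervals and the counts of bound and total genes. Cytosolic head-to-head genes reach 80%, mitochondrial ones 57.1% and all head-to-head genes 43.7%.

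Summits mostly lay upstream of the synthetase start, as they did over all bound genes. Of the 20 strongest summits, 18 lay upstream of the synthetase TSS (90%), against 82.7% over all bound genes, and the exceptions were AspRS-m (96 bp downstream) and ArgRS-m (13 bp downstream). The AspRS summit counts as upstream of an inner TSS, although it lay within the gene. The median distance to the TSS was 104 bp, against 120 bp over all bound genes, at 157 bp for cytosolic and 96 bp for mitochondrial genes. All 13 cytosolic peaks and 4 of the 7 mitochondrial peaks were shared with another gene. Of these 17 summits, 15 lay between the synthetase start and a start of the neighbour, with TyrRS and ArgRS-m as the exceptions. The summit was nearest to a TSS of the synthetase gene itself in 9 of 20 cases (45%), against 71.4% of all bound genes, which leaves 11 summits nearer to the neighbour.

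Among the partners were Vps16A, of the complex that tethers vesicles to the lysosome beside TrpRS, AP-1sigma, a clathrin adaptor subunit, 260 bp from GluProRS, and Plp, a centrosome protein, 418 bp from GlyRS. LysRS, the lysine enzyme, and Hecw, a ubiquitin ligase gene, start 62 bp apart, with the summit 13 bp from the LysRS TSS. An unbound cytosolic gene can share such a promoter as well: GlnRS starts 123 bp from RIOK2, a kinase gene of ribosome assembly. Of the unbound mitochondrial genes, AsnRS-m and TyrRS-m start 53 bp and 55 bp from a diverging neighbour.

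**Figure D4:**
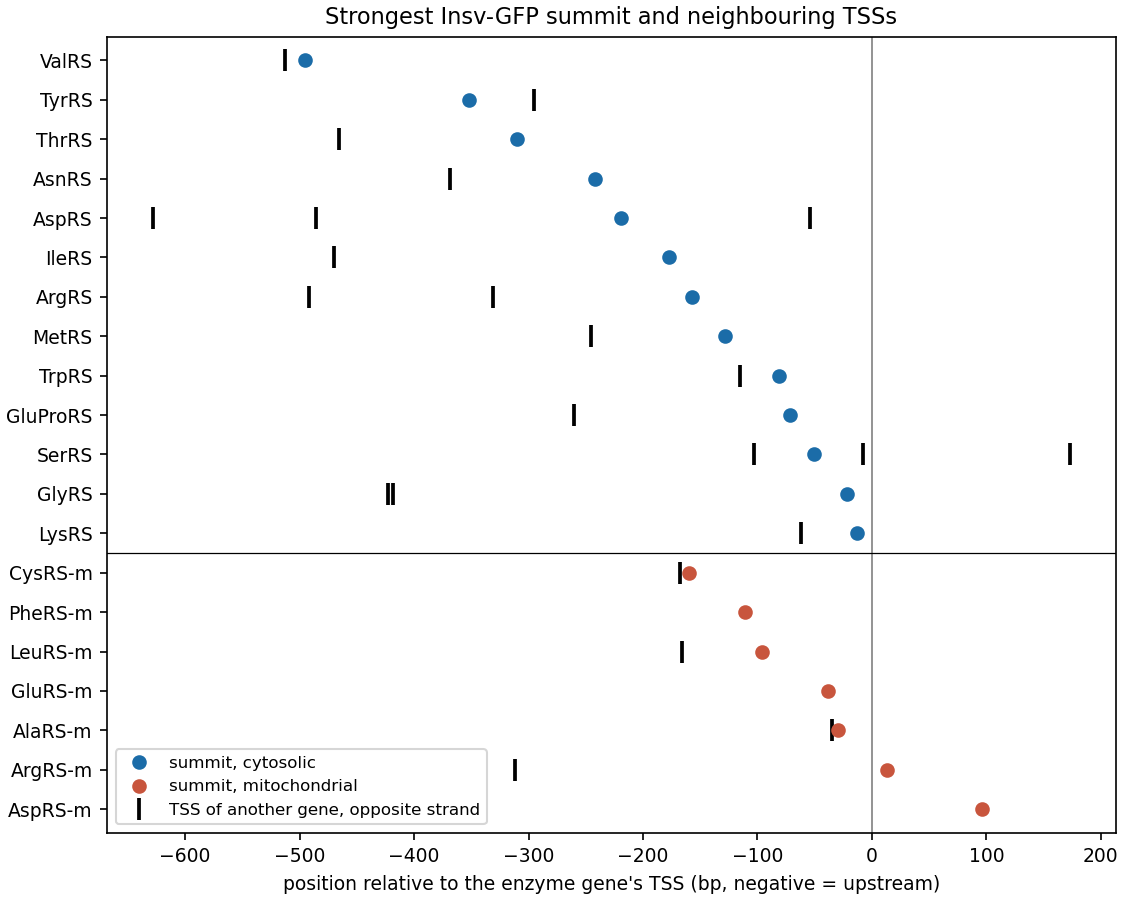
Position of the strongest IDR summit at each of the 20 bound synthetase genes (coloured points), relative to the TSS of the synthetase gene nearest to the summit, in bp with upstream negative. Black ticks are TSSs of other protein-coding genes within 500 bp of the summit, all on the opposite strand. Every cytosolic summit lies upstream of this TSS, and all but that of TyrRS lie between it and a tick. For AspRS this is an inner TSS, and the summit lies within the gene.

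For 12 amino acids there was a gene of each class under the same name. Both genes were bound for arginine and aspartate. The cytosolic gene alone was bound for asparagine, isoleucine, methionine, serine, tryptophan, tyrosine and valine, and the mitochondrial gene alone for alanine, cysteine and leucine. There was no amino acid in which neither gene was bound. Of these 12 cytosolic genes 9 were bound, against 24.8% of all protein-coding genes. The mitochondrial gene was bound together with the cytosolic one in 2 of the 12 cases and alone in 3. Whether the genes of a pair were bound independently of each other was not tested. The cases with the mitochondrial gene alone depend on the list. In the pooled list AlaRS, CysRS and LeuRS each had a region with a q-value below 0.05. Among 6 cytosolic genes without an -m gene of the same name, GluProRS, GlyRS, LysRS and ThrRS were bound, and GlnRS and HisRS were not. GluProRS has separate mitochondrial genes for its amino acids, of which GluRS-m was bound and ProRS-m was not. In mammals the glycine and lysine genes are known to encode enzymes of both compartments.

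No full match to the sequences known to be bound by Insv lay within 50 bp of a summit at these genes. Sequences with a mismatch were not searched for, nor were the outer parts of the peaks. The 20 genes had 23 IDR summits within 500 bp, as AlaRS-m, GluRS-m and ThrRS each had another summit. Within 50 bp of these summits, on both strands, the Insv palindrome CCAATTGG, the degenerate Insv site and the site CCAATAAG of the related Elba complex were found at 0 of 23. Over all 3004 promoter summits they were found at 3.06%, 3.46% and 1.4%. With 23 summits, shares of this size give few or no matches, so no difference was detectable.

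Other promoter motifs were present at a few summits. The M1BP site GGTCACAC lay at 2 of 23 (8.70%), those of TyrRS and ValRS, against 4.26% of all promoter summits. The DREF site TATCGATA lay at 1 (4.35% against 4.66%), that of TrpRS. The BEAF-32 sequence CGATA, which lies within the DREF site, was at 5 (21.7% against 23.7%), those of ValRS, SerRS, TrpRS, GluProRS and ArgRS-m. The E-box CACGTG, bound by Myc and its partner Max, the response element TGATGNAA of amino acid starvation and the GAGA factor repeat GAGAG were at 0 of 23, against 1.36%, 0.965% and 13.5% of all promoter summits. A match shows only that these letters lie in the window.

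The other genes of tRNA charging and use formed a list of 23, of which 10 were bound (43.5%, Wilson 95% interval 25.6 to 63.2%), against 24.8% of all protein-coding genes. Replicate shares were 40.6% ± 2.51 (SD, n = 3). Both subunit genes of the cytosolic phenylalanine enzyme were bound. Alpha-PheRS had ranks of 661, 613 and 606 in replicates 1, 2 and 3, and beta-PheRS had 2293, 3180 and 3841, with its summit 31 bp upstream and near no other gene. With these subunits the cytosolic count was 15 of 20.

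The list also held partners of the enzymes, in groups too small to set against the 24.8% of all protein-coding genes. The genes of the scaffold proteins AIMP1, AIMP2 and AIMP3, which in mammals hold synthetases together in a complex, were bound in 0 of 3 cases. AIMP1 came closest, with ranks of 6229, 7595 and 9388 in replicates 1, 2 and 3. Slimp, a mitochondrial relative of the serine enzyme, was not bound. Of the amidotransferase genes, whose product makes mitochondrial glutamine tRNA from glutamate tRNA, GatC was bound (IDR rank 2568), beside the starts of PolG2 and Polr2C, and GatA and GatB were not.

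The list also held genes of elongation factors, only some of which carry charged tRNA to the ribosome. Of the cytosolic ones, eEF1gamma (ranks 457, 666 and 786 in replicates 1, 2 and 3), eEF1alpha1 and eEF1beta were bound, and eEF1alpha2 and eEF1delta were not. The mitochondrial factors mEFTu1, mEFTu2 and mEFTs were bound in 0 of 3 cases, too few to tell from the 24.8% of all protein-coding genes. Of 6 genes of the stress response that senses uncharged tRNA and other insults, 4 were bound, against the same 24.8%. The kinase gene PEK had ranks of 1738, 1689 and 2317, and eIF2alpha, the substrate of the kinases, had 4703, 2515 and 2765. Thor, an inhibitor of translation initiation, and Gcn2, the kinase that binds uncharged tRNA, had IDR ranks of 3540 and 4632. Gcn2 was among the strongest 4753 regions of replicate 2 alone, with its IDR summit 269 bp from its own TSS and 87 bp from that of Ugt35D1. The transcription factor gene crc, the fly ATF4, was not bound, with ranks of 5212, 7103 and 5951, nor was the phosphatase subunit gene PPP1R15.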

How the data were processed

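Members and lists were chosen with earlier results of these data known. Per the file headers, the authors called regions in each replicate and in the pooled replicates on dm6 against a control alignment, and passed them through IDR; the sources used here name no caller, aligner or IDR threshold. The deposited signal score of each region has an unstated scale and served only as a rank within a list. Significance was deposited by the authors as −log10 of a q-value, and 0.05 was the limit. The deposited summit offset in bp set summit positions. Lists on dm3 were not used.

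Genes and TSSs came from the Ensembl BDGP6 annotation and sequence from RefSeq Release 6, the assembly of dm6; 0 regions ran past a chromosome end. Motif windows were 101 bp. Differences were tested over replicates with an exact sign-flip test. Without a replicate, IDR peaks were kept whose summits lay in the strongest regions of both others, a stricter filter, since the list drew on all 3. Full replicate ranks are given for the 6 strongest bound genes of each class, unbound genes with a region in all 3 replicates, and genes beside the 500 bp limit; others were named after their values were seen. Sequences shown are those of the 3 strongest peaks off arm 2R, limited to bases outside genes or to a site of 30 bases. Gene assignment and motif search were tested on simulated data. Work was done in Python 3.11.15 with scipy 1.17.1, pandas 2.3.3, matplotlib 3.10.9 and numpy 2.4.6.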

Additional observations from a re-analysis of the deposited data

How the results depend on the processing

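Under the other ways of calling a gene bound that were run, the count of synthetase genes stayed within 1.5 times of 20 except with the stronger 50% of the IDR list (8 genes, 5 cytosolic and 3 mitochondrial) and without shared peaks (3 genes, 0 cytosolic and 3 mitochondrial). The cytosolic minus mitochondrial difference of 25.6 points was 14.4 with a 250 bp window and again where the peak had to cover a TSS, 7.78 with the stronger 50%, 53.3 in the pooled list, and -20 without shared peaks. Leaving out 1 replicate gave 8.89 to 21.1 points. The difference from all protein-coding genes, 35.8 points, was 33.7 with the 250 bp window, 11.3 with the stronger 50%, 32.0 in the pooled list, 30.3 with 1 summit for each group of overlapping peaks, 38.1 with alpha-PheRS and beta-PheRS, and -1.53 without shared peaks, and it was 27.3 to 32.4 with 1 replicate left out. The median percentile of 43.6 was 40.4 with the 250 bp window, 48.1 to 65.6 with 1 replicate left out, and 84.4 in the stronger 50%, which by construction drops the weaker peaks. The cause of the other shifts was not tested. TyrRS and ValRS were lost with the 250 bp window and HisRS was gained with 1000 bp. With 1 summit for each group of overlapping peaks, LeuRS-m and ValRS were lost. No paired analysis was possible because the replicates form a single group. Depth is unknown, so weak or missing regions cannot be read as absence of Insv.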

Other observations

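Promoters from 250 bp before to 50 bp after the canonical TSS gave further values for 5 motifs. The DREF site TATCGATA lay in 4 of 18 cytosolic promoters (22.2%), those of AlaRS, ArgRS, IleRS and TrpRS. It lay in 1 of 15 mitochondrial promoters (6.67%), that of PheRS-m. Its share was 8.95% over all protein-coding promoters and 15.2% over those of all bound genes. The M1BP site GGTCACAC lay in 0 of 20 bound and 3 of 13 unbound synthetase promoters, those of AsnRS-m, GlnRS and ProRS-m, against 7.54% of all promoters and 13.8% of those of all bound genes. The M1BP sites under the TyrRS and ValRS summits, 352 and 495 bp upstream, fall outside this promoter window. The E-box CACGTG was in the promoters of GlnRS and LeuRS-m (6.06% against 4.29% of all), and the response element TGATGNAA in that of CysRS alone (3.03% against 4.02%). The GAGA factor repeat GAGAG was in 6 of 33 (18.2% against 30.3%).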
